A study of Rattus norvegicus with 52 samples.

Results

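Single-cell libraries from aneurysm lesions of rats were divided by how much of their RNA count came from ribosomal protein genes, and the 15 libraries rich in these transcripts were set against the 18 that were poor in them, across all other genes. A library was called rich when at least 2% of its counts lay in the 104 rows whose symbol begins with Rpl or Rps and a digit, and poor when less than 0.5% did. The remaining 19 of the 52 libraries lay between these limits and entered no comparison. The libraries were thus selected on the measured counts of those 104 rows, and the comparison below covers the other 21977 of the 22081 rows.

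All libraries came from male Sprague Dawley rats, labelled as 7 weeks old, of a surgical aneurysm model. The left common carotid artery was joined to the right to make a new bifurcation, the left renal artery was tied, and the chow carried 3-aminopropionitrile (0.12%) and added salt (8% sodium chloride). The first of these blocks the cross-linking of collagen and elastin. Dye-bearing nanoparticles (DiI) were injected so that macrophages in the lesion would take them up, and single labelled cells were dissected by laser 3 days later and sequenced with the SMART-Seq Single Cell Plus kit. Rich and poor libraries shared all of this, no untreated animal was included, and the classes were defined by the measured share alone.

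Ribosomal proteins are built from some of the most abundant mRNAs of a living cell, and their mRNAs are translated together when a cell grows. Macrophages are phagocytes that take up particles and lipid and break them down in lysosomes, and in an arterial wall they lie among fibroblasts and smooth muscle cells that make collagen. Besides ribosomal transcripts an intact cell holds many of the cytoskeleton and, if it is a macrophage, of lysosomal enzymes and complement C1q.

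The rats contributed unequally. Rat 1 gave 1 rich library and no poor one, rat 2 gave 10 rich and 7 poor, and rat 3 gave 4 rich and 11 poor. Only rats 2 and 3 could be compared within an animal, so n = 2 rats for every difference between the classes, and an exact sign-flip permutation test over 2 rats cannot give a p below 0.5. Library totals overlapped, from 1538 to 53095 counts in rich libraries, with a median of 15201, against 3085 to 84848 in poor libraries, with a median of 14457. The rats differed too, since rich libraries of rat 3 held 22825 to 53095 counts and those of rat 2 held 1538 to 21475. No 2 columns of the table were identical.

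The ribosomal share itself ran from 2.14% to 13.0% in rich libraries, with a median of 4.02%, against 0.0110% to 0.421% in poor libraries, with a median of 0.117%. Just inside the upper limit were library 15 at 2.14% and library 45 at 2.16%, and just outside it was library 29 at 1.78%. Just inside the lower limit was library 44 at 0.421%, and just outside it library 5 at 0.512%. These values form the classes and are given as a description. The plot of the share by library shows a continuous fall with no gap at either limit.

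**Figure D1:**
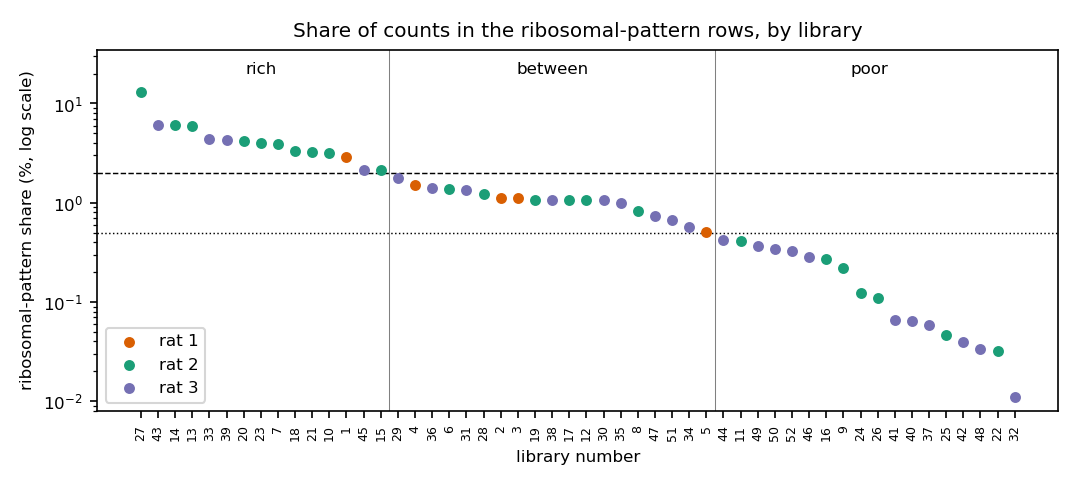
Share of each library's counts in the 104 ribosomal-pattern rows (%, log scale), for all 52 libraries sorted within class and coloured by rat. The dashed line is the 2% limit and the dotted line the 0.5% limit, and the rich libraries run from 13.0% down to 2.14% without a gap to the libraries between the limits.

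The rich class was not uniform in how its share arose. Library 13 had counts in 53 of the 104 rows and library 43 in 48, with no row above 14.4% of the ribosomal count in library 13 or 10.2% in library 43. In library 27 a single row, Rpl23a of the large subunit, took 79.4% of the ribosomal count, and the library's 13.0% rests on it. Rps27 took 57.6% in library 10, which had counts in 6 rows. The pattern also catches 12 rows that are not ribosomal proteins, mainly the Rps6k kinases, which phosphorylate ribosomal protein S6 and other targets. Those 12 rows made up 0.669% of the ribosomal-pattern count in rich libraries against 14.5% in poor libraries. Their own counts were small in both, at 90 in the rich libraries together against 111 in the poor ones.

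Rows for ribosomal proteins that the pattern misses give a view of the same protein family that the choice of libraries did not use. Of the 6 listed, 5 are described here, namely the stalk proteins Rplp0, Rplp1 and Rplp2, the small-subunit protein Rpsa, and Fau, which makes a ribosomal protein fused to a ubiquitin-like one. Rplp0 reached 5 or more counts in 9 of 15 rich libraries (lowest 0, median 6, highest 170 counts) against 1 of 18 poor libraries (lowest 0, median 0, highest 104 counts). Rplp1 did so in 7 rich libraries (median 3, highest 80 counts) against 1 poor library (median 0, highest 10 counts). Rpsa did so in 4 rich libraries (median 0, highest 165 counts) against 1 poor library (median 0, highest 7 counts). These 3 were thus found at such counts in up to 9 of the rich libraries and in 1 poor library each. The single poor library with many Rplp0 counts, library 44, held 94.5% of the class's 110 counts in rats 2 and 3. Rplp2 had at most 1 count in any rich or poor library, and Fau had none in either class.

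The region around the start of the ribosomal protein genes was searched for a short pyrimidine motif. Their transcripts commonly begin with a run of pyrimidines, the 5′ terminal oligopyrimidine tract, which places their translation under growth control. In the RefSeq promoter table of build GRCr8, the 60 bases from 30 before to 30 after the listed start held CTTTC in 25 of 55 promoters of the rows that chose the libraries (45.5%), and in 4 of 5 promoters matched among the 6 listed rows that the pattern misses. Among all 24206 promoters whose symbol has 1 entry, 7.90% held it. The reverse complement GAAAG was found in 1.82% of the 55 and 7.44% of all. CTTTC anywhere in this window is not itself the tract, whose place is the first bases of the transcript. In Rpsa it lies before the listed start, and Rplp0 has a pyrimidine run at its listed start without CTTTC. The tract itself was not measured. The windows of Rplp1 and Rpsa, which hold CTTTC, of Rplp0, which lacks it, and of Tmsb4x, a marker described below that is no ribosomal gene, are shown on the strand of the gene with CTTTC in capitals. Rplp1 is at chr8:71290843-71290902 on the minus strand, Rpsa at chr8:128728849-128728908 on the plus strand, Rplp0 at chr12:46718361-46718420 on the minus strand and Tmsb4x at chrX:30761581-30761640 on the plus strand.
Rplp1: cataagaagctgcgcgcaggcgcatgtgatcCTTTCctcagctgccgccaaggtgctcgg
Rpsa: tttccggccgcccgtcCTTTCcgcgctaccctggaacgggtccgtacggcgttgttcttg
Rplp0: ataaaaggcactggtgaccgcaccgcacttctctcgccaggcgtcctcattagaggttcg
Tmsb4x: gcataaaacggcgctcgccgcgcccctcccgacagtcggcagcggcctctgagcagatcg

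The 4 markers of cellular mRNA, Tmsb4x, B2m, Vim and Tpt1, were found mostly in the rich class. Tmsb4x, which makes thymosin beta 4, the main protein that binds actin monomers, had 5 or more counts in 9 of 15 rich libraries (lowest 0, median 14, highest 2432 counts) against 0 of 18 poor libraries (highest 1 count). Vim, the intermediate filament of mesenchymal and blood-derived cells, had 5 or more counts in 8 rich libraries (median 6, highest 602) against 1 poor library (median 0, highest 12). B2m, the light chain of class I major histocompatibility molecules, had them in 5 rich libraries (median 0, highest 52) against 0 poor ones (highest 2). For Tmsb4x and B2m no poor library passed 2 counts, for Vim poor library 24 reached 12, and for all 3 genes the rich class also held libraries at 0. Tpt1, a growth-related protein whose mRNA is regulated like ribosomal ones, had 5 or more counts in 4 rich libraries (median 0, highest 123) against 1 poor library (median 1, highest 5). A count of 1 or more of Tpt1 was in fact more common in the poor class, with 10 of 18 libraries against 6 of 15 rich ones.

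Summed over rats 2 and 3, Tmsb4x had 2874 counts in rich libraries and 2 in poor libraries. As shares of all counts outside the ribosomal rows these give a ratio of 2034 (95% exact conditional interval 563 to 16805, counting error only). Library 39 alone held 84.6% of the rich count, and without it the ratio was 392 (interval 108 to 3248). Without poor library 25, which held 1 of the 2 poor counts, it was 3970 (interval 712 to 156858). B2m had 171 counts in rich libraries and 3 in poor ones, a ratio of 80.7 (interval 27.1 to 395.1), which became 221 (interval 39.2 to 8799) without poor library 41 and its 2 counts. Vim had 1242 counts in rich libraries and 14 in poor ones, a ratio of 126 (interval 74.6 to 230.4). Library 39 held 48.5% of the rich Vim count and poor library 24 held 85.7% of the poor count, and the ratio was 81.1 without the first and 823 (interval 227 to 6804) without the second. Tpt1 had 244 counts in rich libraries and 18 in poor ones, a ratio of 19.2 (interval 11.9 to 32.9), which was 11.1 without library 33. All 4 ratios stayed above 1 without either such library, and their size depended on single libraries. The differences between single libraries of a class were far wider than these intervals, which treat reads as independent.

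The test across all genes called none of these differences. With counts summed per rat and class and rat as a block, edgeR's quasi-likelihood test measured 1021 rows and found 0 higher and 0 lower in the rich class at a Benjamini-Hochberg adjusted p under 0.05 (0% in both directions), the smallest adjusted p being 0.373. At an unadjusted p under 0.05, 102 rows were higher (9.99%) and 10 were lower (0.979%). DESeq2 on the same sums called 76 higher and 4 lower. The fitted log2 differences of the 4 markers were 10.44 (SE 1.71) for Tmsb4x, 6.36 (SE 0.77) for B2m, 6.73 (SE 2.73) for Vim and 4.91 (SE 0.98) for Tpt1, and edgeR's adjusted p was 0.373, 0.373, 0.718 and 0.373 in that order. All 4 fitted values were above 0, and the median over the 1021 rows was 0.01. Poor sums in rats 2 and 3 were 1 and 1 for Tmsb4x, 1 and 2 for B2m, and 2 and 16 for Tpt1. Sums this low could pass the filter on low counts only through the rich libraries. The sign of these genes was thus fixed by the filter, and its contrast with the median is no support. With 2 rats no gene outside the ribosomal rows can be said to differ between the classes by this test, and the values that follow are descriptions of the libraries.

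**Figure D2:**
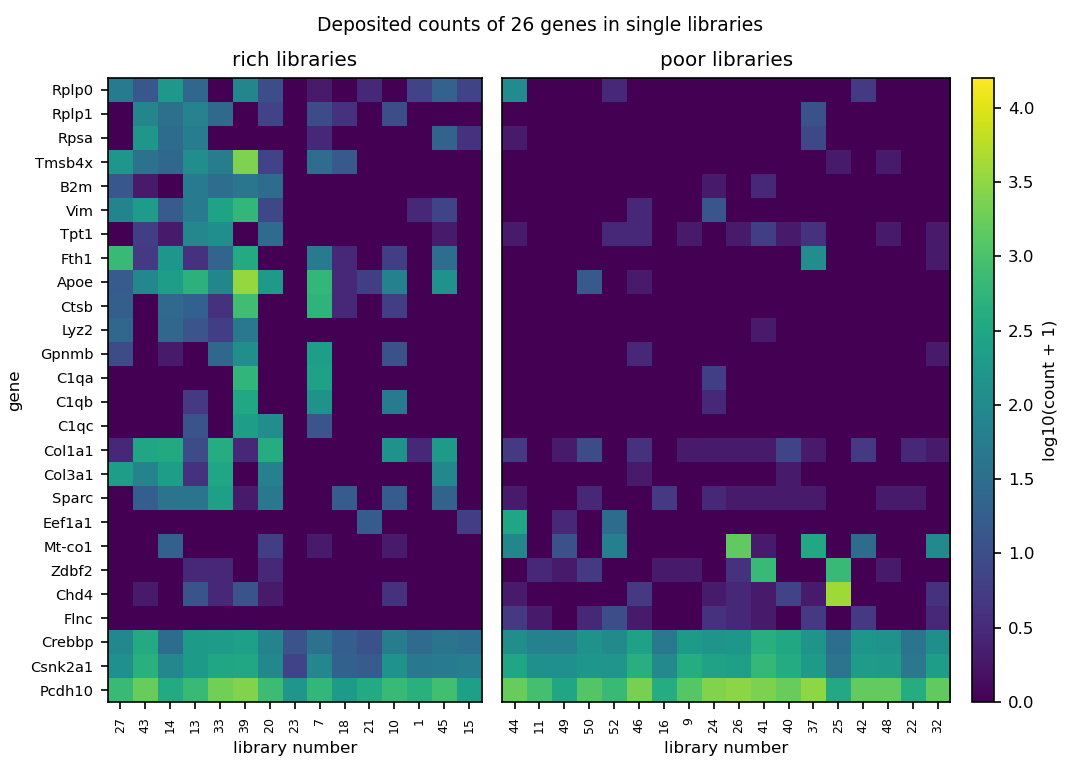
Deposited counts of 26 genes, as log10(count + 1), in the 15 rich libraries (left) and the 18 poor libraries (right), each sorted by ribosomal share from high to low. Tmsb4x, Vim, Apoe and the collagens are bright in most of the leftmost rich libraries and dark in nearly all poor ones, while Pcdh10, Csnk2a1 and Crebbp are bright in both.

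Among all rows outside the pattern, 11 had 5 or more counts in at least 5 rich libraries and in no poor library (0.0501%), and 8 showed the reverse (0.0364%). Among the 11 were Tmsb4x, B2m, Sparc, Ccdc152, Col3a1, Ctsb, Arhgdia, Gpnmb, Lyz2 and the unnamed LOC108352650. They hold cytoskeletal and signalling genes, with Arhgdia, an inhibitor of small GTPases, at 5 or more counts in 5 rich libraries. They also hold genes of lysosomes and phagocytes (Ctsb, Gpnmb, Lyz2) and of extracellular matrix (Col3a1, Sparc). Ccdc152 reached 470 counts in a rich library against 2 in a poor one. It overlaps Selenop in the RefSeq annotation, and since it is not given whether counting used strand, reads of the pair cannot be told apart. The row of Selenop itself had at most 2 counts in a rich library and 3 in a poor one. The 8 of the reverse kind were Abcd3, Bsn, Cav3, Fam210b, Jmy, Spag9, Stt3a and Tlr6. Each was at 5 or more counts in 5 or 6 poor libraries, with highest counts from 8 for Tlr6 to 109 for Spag9, against at most 4 counts in any rich library.

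Detection at one depth gave a second view. Each library was thinned to 9049 counts, which kept 9 rich libraries (5 of rat 2, 4 of rat 3) and 15 poor libraries (5 of rat 2, 10 of rat 3) for the comparison within rats. The rich libraries of rat 2 held a mean of 1545 ± 424 detected rows against 1981 ± 551 in its poor libraries (SD, n = 5 libraries each). In rat 3 the rich libraries held 1834 ± 262 (SD, n = 4 libraries) and the poor ones 2200 ± 623 (SD, n = 10 libraries). The mean difference over the rats was -401 ± 49.0 rows (SD, n = 2 rats). That is smaller than the SD between the libraries of either class in rat 2 and than that of the poor libraries in rat 3. The mean of rows with 5 or more counts at that depth went the other way, at 224 per rich library and 183 per poor library. Single libraries overlapped in both rats. In rat 3 poor library 44, at 46.1, lowered the poor mean. Most other poor libraries of rat 3 lay above rich libraries 33 (194), 39 (172) and 45 (193), and all lay below rich library 43 (278). On average rich libraries thus had fewer rows with any count and more rows with several counts, though most single libraries of rat 3 did not follow the second. The percent of libraries with a count was higher in rich in both rats for 1390 rows (6.32%) and lower in both for 3591 rows (16.3%). A difference of 40 points or more was seen for 30 rows in favour of rich (0.137%) and 47 in favour of poor (0.214%).

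The largest gains in detection at the fixed depth belonged to Apoe, the lipid carrier that macrophages secrete, at 93.4 points, and Tmsb4x at 84.3 points. After these came Vim at 76.7 points, Fth1, the ferritin heavy chain that stores iron, at 74.3, Col3a1 at 72.1, Rplp0 at 67.7, Rplp1 at 60.0 and the lysosomal protease Ctsb at 59.8. The remaining 7 of the 15 were Ccdc152, Arhgdia, B2m, Lyz2, Lmna, Ftl1 and Rpsa, at 47.3 to 57.7 points. The set holds 3 of the 4 markers and 3 of the 6 ribosomal proteins that the pattern misses. Ftl1, the ferritin light chain, had a summed count of 385 in rich and 299 in poor libraries of rats 2 and 3, 99.3% of the poor count lying in library 37 and 61.8% of the rich count in library 39.

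The largest losses were smaller in counts. Rnf214, Ywhae, Thrap3, Adgrl1, Txlnb, Flnc, Dok5 and Mapk13 were 49.0 to 56.3 points less often detected in rich libraries. Their median count per poor library was 0.5 to 4.5, and none had over 36 counts in any of them. Flnc, the muscle filamin, had no count in any rich library and at most 9 in a poor one. Ywhae, a 14-3-3 protein, was less often detected in rich libraries yet held 153 counts there against 124 in poor libraries of rats 2 and 3, since library 20 held 91.5% of the rich count. Thus detection and summed level can differ in direction for such a gene. Zdbf2, which had edgeR's lowest unadjusted p, rested on the 2 poor libraries with high counts, where it reached 699 against at most 2 counts in a rich library.

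Macrophage genes were more often present in rich libraries. At 5 or more counts the 25 macrophage rows gave 9.87% of their gene and library pairs in rich against 2.22% in poor libraries, where all rows outside the pattern gave 1.59% and 1.57%. Of the 25 rows, 16 reached 5 counts in more rich than poor libraries, 2 in more poor ones, and the rest in equally many of both. This count of members was not made over all rows outside the pattern, here or for the lists below. The lists also share rows, such as Ctss in the macrophage and lysosomal lists and Ctsd in the lysosomal and lipid-associated ones. The summed count of the list ran from 0 to 1574 in rich libraries, with a median of 19, against 0 to 61 in poor libraries, with a median of 7. The complement genes C1qa, C1qb and C1qc, which macrophages make, were at 5 or more counts in 2, 3 and 4 rich libraries against 1, 0 and 0 poor ones. C1qc had 359 counts in the rich libraries of rats 2 and 3 and 0 in the poor ones, at least 169-fold higher against a floor of 3 counts over the class, or at least 80.4-fold without library 39. Csf1r, the receptor for macrophage colony-stimulating factor, reached 192 counts in rich against 2 in poor libraries. Cd68 reached 95 against 1.

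The labels call every cell a macrophage, and defining markers were absent from most libraries of both classes. Csf1r and Cd68 were each at 5 or more counts in 2 rich libraries and in no poor one, and Ptprc, the pan-leukocyte CD45, in 1 library of each class. Some macrophage rows were not higher in rich. Fcgr3a was at 5 or more counts in 3 rich and 4 poor libraries and the mannose receptor Mrc1 in 1 rich and 4 poor libraries. Without library 39, which had the highest macrophage sum, the macrophage list still gave 8.00% in rich, against 1.88% in poor libraries without library 41, the highest of that class.

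Genes of the lysosome and of lipid handling followed. The 26 lysosomal rows gave 12.3% of pairs at 5 or more counts in rich libraries against 4.27% in poor ones, and 16 of them reached 5 counts in more rich than poor libraries while 2 did the reverse. The 15 rows of lipid-associated macrophages gave 10.2% against 1.11%, but this rests on few members. Of these rows 5 (Apoe, Gpnmb, Trem2, Ctsd and Npc2) reached 5 counts in more rich libraries, 2 (Fabp5 and Abca1) in more poor ones, and the other rows in no library of either class. Apoe was at 5 or more counts in 11 of 15 rich libraries (median 84, highest 3411) against 1 of 18 poor libraries (median 0, highest 14). Library 39 held 64.1% of its rich count in rats 2 and 3. Ctsb had 1423 counts in the rich libraries of rats 2 and 3 and 0 in the poor ones, at least 671-fold higher against the same floor, or at least 364-fold without library 39. Gpnmb, a glycoprotein of lipid-laden macrophages, was at 5 or more counts in 5 rich libraries (highest 219) against 0 poor ones (highest 2). Trem2, a lipid receptor, was at 5 or more counts in 3 rich libraries (highest 8) and had no count in a poor one. Lamp1, a lysosomal membrane protein, was instead found in nearly all libraries, with 5 or more counts in 14 of 15 rich and 18 of 18 poor ones, and its fitted log2 difference was 1.27 (SE 0.61).

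Collagen and matrix genes were also more often present in rich libraries. The 20 fibroblast and collagen rows gave 15.7% of pairs at 5 or more counts in rich against 1.39% in poor libraries, and 12 of them reached 5 counts in more rich than poor libraries while 0 did the reverse. Col1a1 was at 5 or more counts in 7 rich libraries (median 2, highest 398) against 2 poor ones (highest 8), with a fitted log2 difference of 6.78 (SE 0.93). Col3a1 was at 5 or more counts in 6 rich libraries (highest 304) against 0 poor ones (highest 1). Sparc, a collagen-binding matrix protein, was at 5 or more counts in 8 rich libraries (median 16, highest 231) against 0 poor ones (highest 4). The summed list ran from 0 to 1004 counts in rich libraries, with a median of 64, against 0 to 31 in poor libraries, with a median of 8.5. The collagens among them are typical of matrix-making cells and not of the cell type labelled, but not every row of the list defines fibroblasts. Pdgfra and Thy1, which are on the list, reached 5 counts in no rich or poor library. Whether the transcripts of this list came from the dissected cell or from matrix-making cells beside it was not tested.

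**Figure D3:**
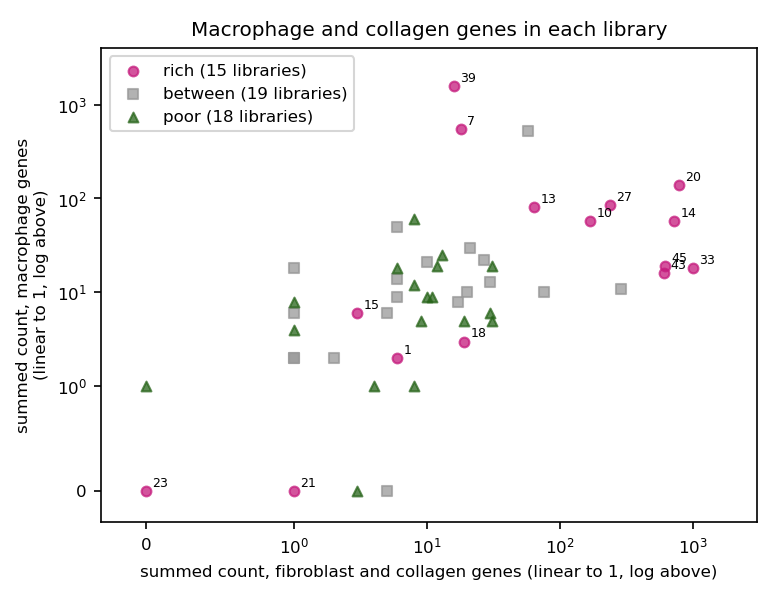
Summed counts of 25 macrophage rows (vertical) and of 20 fibroblast and collagen rows (horizontal) in each of the 52 libraries, on axes linear to 1 and logarithmic above, with the rich libraries numbered. Libraries 39 and 7 lie high and left, libraries 33, 43, 45, 14 and 20 lie right, and the poor libraries reach at most 61 macrophage counts and 31 collagen counts.

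The rich libraries differed widely in these lists. Library 39 had 1574 macrophage and 16 collagen counts, and library 7 had 548 and 18. At the other end library 33 had 18 macrophage and 1004 collagen counts, library 45 had 19 and 614, and library 43 had 16 and 606. Libraries 20 (138 and 781), 14 (58 and 725), 27 (85 and 239), 10 (58 and 168) and 13 (81 and 64) had counts in both lists. With at least 3 members at 5 or more counts taken as presence, 6 rich libraries had the macrophage list, 6 had the collagen list, 3 of these (libraries 13, 14 and 33) had both, and 6 had neither. No poor library had either, and of the 19 libraries between, 2 had the macrophage list and 1 the collagen list.

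Libraries 1, 15, 18, 21 and 23 were rich by ribosomal share and held few counts of the macrophage and collagen lists. They had 0 to 6 macrophage counts and 0 to 19 collagen counts. Other cellular transcripts were not absent. Summed counts of the cytoskeletal rows described below were 52, 88, 18, 138 and 10 in that order. Library 23 also had 133 counts in the ribosomal proteins that the pattern misses. Of 12 genes chosen after their values were seen (Apoe, Tmsb4x, Vim, Fth1, Rplp0, Rplp1, Col3a1, Ctsb, B2m, Lyz2, Sparc and Col1a1), rich libraries had a median of 7 at 5 or more counts and a highest value of 11. The genes were picked largely for their high values in rich libraries, so their number is used here only to set rich libraries side by side. Library 23 had 0 of the 12, libraries 1, 15 and 21 had 1 each and library 18 had 2. These 5 include the 2 shallowest rich libraries, library 18 with 1538 counts and library 23 with 2141, while library 1 held 11973. Below the upper limit, library 4 of rat 1, with a ribosomal share of 1.50%, had 11 of the 12.

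Rows of the actin cytoskeleton and of translation were also at 5 or more counts more often in rich libraries. The 35 cytoskeletal rows, which include Tmsb4x and Vim, gave 10.5% of pairs at 5 or more counts in rich against 1.75% in poor libraries, and 18 of them reached 5 counts in more rich than poor libraries while 0 did the reverse. Actb, the cytoplasmic actin, was at 5 or more counts in 6 rich libraries (highest 104) against 3 poor ones (highest 72). The talin gene Tln1, which links actin to integrins, did so in 6 rich libraries (highest 181) against 3 poor ones (highest 13). Its fitted log2 difference was 3.20 (SE 0.86). The 22 translation factor rows gave 10.3% in rich against 2.78% in poor libraries, and the libraries between the limits gave 11.2%, no less than the rich ones. Among them Pabpc1, the poly(A)-binding protein, was at 5 or more counts in 8 rich libraries (highest 163) against 3 poor ones (highest 11), with a fitted log2 difference of 3.55 (SE 0.96). The elongation factor Eef2 did so in 3 rich libraries against 0 poor ones. Eef1a1, one of the most abundant mRNAs of most cells, was no part of this, with 5 or more counts in 2 libraries of each class and a highest count of 16 in rich against 309 in poor libraries.

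Other housekeeping lists were detected more often in rich libraries at lower levels. The 44 nuclear genes of oxidative phosphorylation gave 4.55% of pairs at 5 or more counts in rich against 1.01% in poor libraries, and the 22 proteasome rows gave 3.33% against 0.505%. Hsp90ab1, a cytosolic chaperone, had 218 counts in rich libraries and 0 in poor ones of rats 2 and 3, at least 103-fold higher against the floor of 3 counts over the class, or at least 27.8-fold without library 39. Aldoa, the glycolytic aldolase, had 75 counts in rich libraries and 0 in poor ones, at least 35.4-fold higher, or at least 18.9-fold without library 7. Of the 34 lists, 15 were detected more often in rich at the fixed depth in both rats, and 23 were so at 5 or more counts as deposited. All rows outside the pattern were detected less often in rich at the fixed depth, at 7.03% against 9.01% in rat 2 and 8.34% against 10.0% in rat 3.

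**Figure D4:**
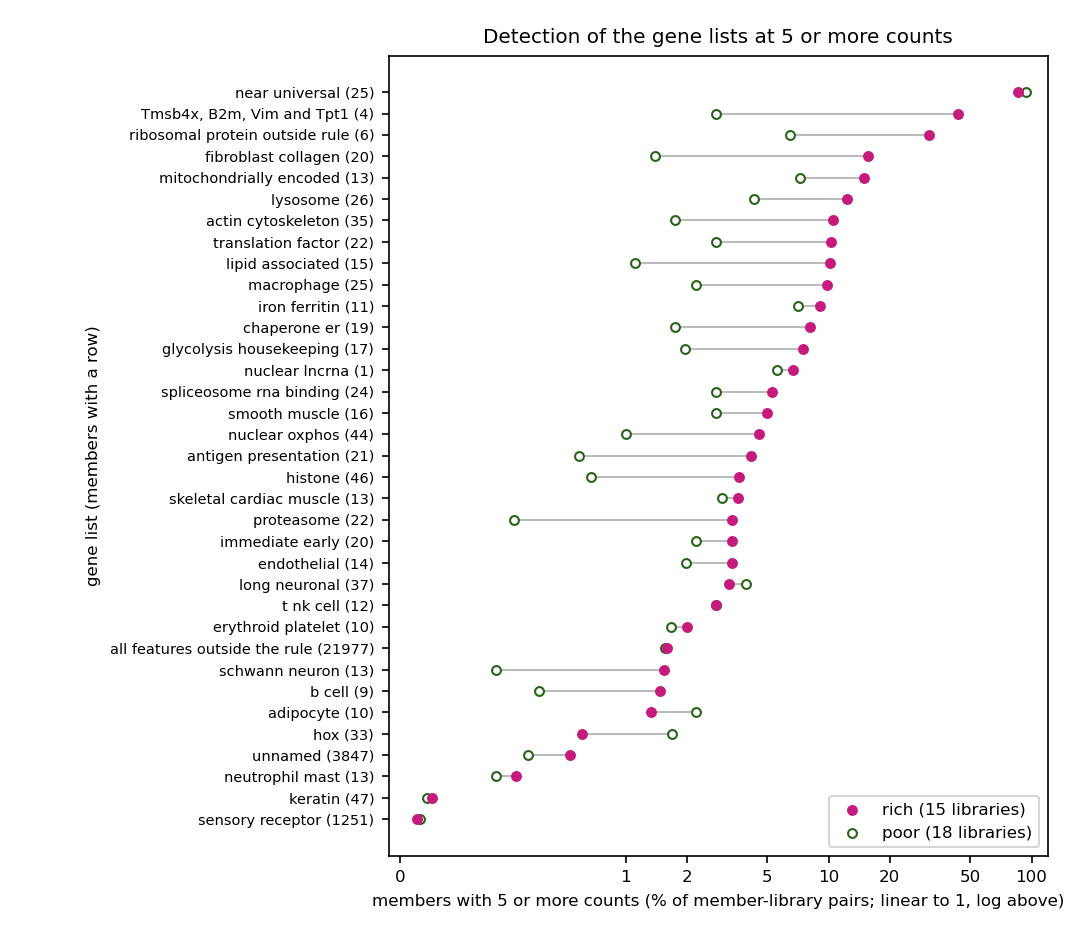
Percent of gene and library pairs at 5 or more counts for each of the 34 gene lists and for all 21977 rows outside the pattern, in the 15 rich libraries (filled) and the 18 poor libraries (open), on an axis linear to 1 and logarithmic above. Most lists of expressed genes lie to the right in rich, all rows lie at 1.59% in rich and 1.57% in poor, and the near-universal features lie at 85.9% in rich and 93.6% in poor.

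Markers of other cell types differed less. The 12 rows of T and NK cells gave 2.78% of pairs at 5 or more counts in both classes. The 14 endothelial rows gave 3.33% in rich against 1.98% in poor libraries, with Plvap at 57 counts in rich library 13 and at most 2 in a poor library. The 16 smooth muscle rows gave 5.00% against 2.78%, and Acta2, smooth muscle actin, was at 5 or more counts in 3 rich and 4 poor libraries with highest counts of 22 and 24. Summed counts of neutrophil and mast cell, B cell and adipocyte lists stayed at or below 30 in every rich library and 24 in every poor library. The haemoglobin gene Hba-a1 had 680 counts in 1 poor library, number 37, and 16 in 1 rich library. The 33 Hox rows, which encode homeobox factors of body patterning, gave 0.808% in rich against 1.68% in poor libraries, and at the fixed depth they were detected at 10.9% against 19.5% in rat 2 and 10.3% against 20.6% in rat 3.

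Mitochondrially encoded transcripts, which are made inside mitochondria, gave values that depend on how they are averaged. Their share of the count had a median of 0.272% in rich libraries (lowest 0%, highest 2.54%) against 0.0200% in poor libraries (lowest 0%, highest 7.97%). The mean pointed the other way, with a difference between classes of -0.728 ± 0.238 points (SD, n = 2 rats), from class means of 0.440% in rich and 1.17% in poor libraries. Poor library 26 of rat 2 at 7.97% and poor libraries 37 at 7.15% and 32 at 4.85% of rat 3 carried that mean. Without library 26 the difference was -0.159 points and without library 37 it was -0.430 points. In gene and library pairs at 5 or more counts the rich class was again ahead, at 14.9% against 7.26%. Mt-co1, a subunit of cytochrome oxidase, was the 1 row that went the other way, with 5 or more counts in 2 rich against 7 poor libraries. Its highest count was 19 in rich against 1509 in poor libraries. Most other rows also had their highest count in a poor library, while Mt-nd1, Mt-nd5 and Mt-atp8 had theirs in a rich one.

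A set of 25 features was present in nearly every library. They were chosen because they had been seen among the highest of nearly every library in these data, and they include the protocadherin Pcdh10, the kinase subunit Csnk2a1 and the acetyltransferase Crebbp. Their share of the count had a median of 14.9% in rich libraries (lowest 6.98%, highest 29.9%) against 25.3% in poor libraries (lowest 4.14%, highest 34.9%). The ranges overlapped, and the libraries between the limits had a median of 22.0%. Within rats the means were 16.2% in rich against 25.8% in poor libraries of rat 2, and 16.3% against 22.7% in rat 3. The difference of -8.02 ± 2.31 points (SD, n = 2 rats) had the same sign in both rats. Pcdh10 itself was detected in all 33 libraries, with a median of 675 counts in rich ones, and its fitted log2 difference was -0.49. Fitted values were below 0 for 19 of the 25 and above 0 for 6, against 506 and 515 of all 1021 rows. Since a share is taken of a fixed total, a lower share of these features and a higher share of others cannot be told apart.

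**Figure D5:**
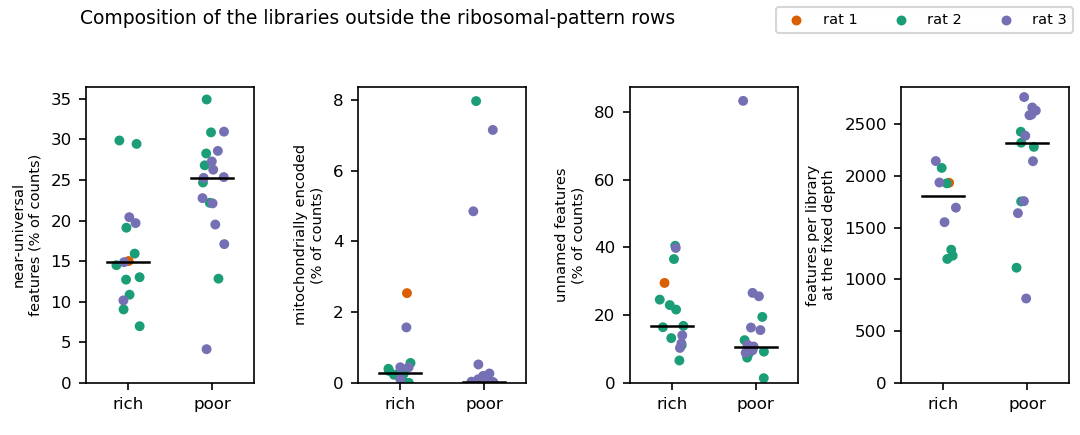
Per-library share of counts in 25 near-universal features, 13 mitochondrially encoded genes and 3847 unnamed features, and rows detected at 9049 counts, with rich libraries left and poor libraries right, points coloured by rat and bars at the median. The near-universal share has medians of 14.9% in rich and 25.3% in poor, and 3 poor libraries stand high in the mitochondrial panel.

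Unnamed features, the 3847 rows with a locus or clone name in place of a gene symbol, overlapped between the classes. Their share had a median of 16.8% in rich libraries (lowest 6.59%, highest 40.5%) against 10.5% in poor libraries (lowest 1.37%, highest 83.3%), and the difference was 4.77 ± 9.28 points (SD, n = 2 rats). It was 11.3 points in rat 2 and -1.79 points in rat 3. Poor library 44 took 51.8% of its count from the single row AABR07015057.1, and without that library the difference was 7.90 points. Without rich library 45 it was 1.29 points. That row was present at 5 or more counts in all 33 libraries, with a highest count of 5610 in rich and 43756 in poor libraries.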

How the data were processed

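Whole-number counts per gene symbol for 52 single-cell libraries were used as the authors deposited them, with no normalization; the sources used here do not name the aligner, counter, build or annotation, nor say whether duplicates were removed or strand was used. Overlapping genes and near-identical copies, of which ribosomal proteins have many, are therefore uncertain. Columns were matched to libraries and rats by title, and 0 columns were left over. The libraries have no molecular identifiers, so intervals and the floor of 3 counts cover counting error only. Cells were cut out one by one, and doublets were not called.

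The classes, the lists and the named genes were chosen with earlier results of these data known. The 34 lists held 569 symbols, of which 517 had a row, 14 of them under an older or newer symbol. Named genes were the 4 markers, the 6 ribosomal proteins missed by the pattern, the 15 largest gains and 8 largest losses in detection at the fixed depth, up to 3 members per list with 5 or more counts in most libraries, and AABR07015057.1. Other named genes were chosen after their values were seen, and some that these rules name are not reported here: Zdbf2, Chd4, Csf1r, Cd68, C1qa, C1qb, C1qc, Ptprc, Eef1a1, Eef2, Ctsd, Npc2, Fabp5, Abca1, LOC108352650, Selenop and the 8 rows seen at 5 or more counts in poor libraries alone.

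Counts outside the 104 pattern rows were summed per rat and class. They were tested with edgeR 4.0.16 in R 4.3.3 (quasi-likelihood, TMM, rat as block, rows kept by filterByExpr), with DESeq2 1.42.0 as an alternative. Rats 2 and 3 entered it, so library 1 of rat 1 did not. The SE is the fitted log2 difference over the square root of F. Detection at one depth is the expected value of thinning to 9049 counts, the lower quartile of the 33 totals, which left out 8 libraries. Promoters are RefSeq sequences of GRCr8, a build not known to be that of the counts, and genes were matched by symbol. Other software was Python 3.11.15, pandas 2.3.3, scipy 1.17.1 and matplotlib 3.10.9.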

Additional observations from a re-analysis of the deposited data

Results flagged for a closer look

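Totals, the ribosomal, mitochondrial, near-universal and unnamed shares and the rows at the fixed depth were screened in the same groups of libraries. Among 19 such sets of values, each of 4 to 10 libraries of 1 rat and class, 3 held a value whose gap to its nearest neighbour was large for the range. Chance gives about 1 in 20. The 11 poor libraries of rat 3 were too many for this screen, except for rows at the fixed depth. Poor library 44, with an unnamed share of 83.3%, was thus not screened for it. The ribosomal share of rich library 27 was 13.0%, against 6.04% in the next library of rat 2. The mitochondrially encoded share of poor library 26 was 7.97%, against 0.00849% in the next poor library of rat 2. The unnamed share of rich library 45 was 39.8%, against 14.0% in the next rich library of rat 3. The cause of each was not tested.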

How the results depend on the processing

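The test gave 0 calls in both directions under DESeq2 size factors, without the replicate block, with the pattern rows in library sizes, with libraries thinned to one depth, with the rich class from 1%, with the poor class below 1%, with ribosomal proteins alone as the share, and without any 1 of 32 libraries (0 to 0). Without a filter on low counts it called 30 higher and 3 lower of 16629 rows, and DESeq2 called 76 higher and 4 lower; the cause was not tested. After seeing the data, leaving out libraries under 5000 counts or with 1 feature over 25% of the count was tried as well, with 0 calls each. Without rat 2 or without rat 3 a single rat remains, so that fit was not run. The fitted differences printed above kept their sign under every setting that measured the gene. For Tmsb4x, B2m and Tpt1 the filter on low counts fixed that sign in the main test. The 4 markers passed under DESeq2, and Tmsb4x also without a filter. The rat is the block here, and leaving it out changed no call, with 125 rows higher and 11 lower at an unadjusted p under 0.05.

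The difference in detected rows at the fixed depth was -312 with the poor class below 1%, -332 with ribosomal proteins alone, -33.7 without thinning and 40.4 at 5 or more counts; leaving out a rat gave -436 to -367. The mitochondrial difference became 0.453 points with the poor class below 1% and 0.341 with ribosomal proteins alone, which both bring in rat 1, and ran from -0.896 to -0.159 without a rat or library. The near-universal difference ran from -9.65 to -6.39 without a rat, and the unnamed one from -1.79 to 11.3. Of the 34 lists 15 were higher in both rats at the fixed depth and 23 at 5 or more counts. Depth limits all of this, since a row at 0 in a library of 1538 counts may be present in the cell.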
